A study of Mus musculus with 12 samples.

Results

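The 75 genes that encode cytosolic ribosomal proteins were followed across prostate tissue of mice of 4 genotypes. They were chosen by symbol alone, as the rows named *Rpl* or *Rps* with a number (and an A or X where present) or *Rplp0* to *Rplp2*, and they are 75 of the 41042 genes listed, 29 of the small subunit and 46 of the large subunit. All 12 mice were 15-month-old C57BL/6 males, 3 per group. The WT mice carried no engineered change. The Pb-ERG mice carried an ERG transgene under the probasin promoter (Pb), which is active in prostate epithelium. In the Trp53pc-/- mice a Cre recombinase under a probasin promoter deleted the floxed *Trp53* alleles, and the Pb-ERG;Trp53pc-/- mice (double mutant here) had both changes. Genotypes with the R172H mutant were not analysed here.

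Ribosomal proteins assemble with ribosomal RNA into the small subunit, which decodes the mRNA, and the large subunit, which joins the amino acids. Their mRNAs are short, abundant in every cell and, as a class, begin with a cytosine followed by a run of pyrimidines, the 5′ terminal oligopyrimidine (TOP) tract, through which mTOR signaling controls their translation. Ribosomal proteins that are not built into ribosomes, such as *Rpl5* and *Rpl11*, bind MDM2 and thereby stabilize p53, the protein that is deleted in the Trp53pc-/- prostate.

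The start sites of members that return below are shown because this tract, not the coding part, is what the class shares. Each line gives 30 bases from 10 bases before to 20 bases from the annotated start on, 5′ to 3′, from RefSeq on GRCm38.p6, and the capitals mark a run of C and T that begins with C within 5 bases of that start.
Rps6: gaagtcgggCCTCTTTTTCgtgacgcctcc
Rps27: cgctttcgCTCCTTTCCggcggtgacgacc
Rpl15: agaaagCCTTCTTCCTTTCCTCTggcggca
Rpl27a: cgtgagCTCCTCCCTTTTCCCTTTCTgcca
Rpl10: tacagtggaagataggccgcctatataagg
Rpl4: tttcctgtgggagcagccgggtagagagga
They lie at chr4:86857348-86857377 (*Rps6*, minus strand), chr3:90213629-90213658 (*Rps27*, minus), chr14:18270967-18270996 (*Rpl15*, minus), chr7:109519185-109519214 (*Rpl27a*, plus), chrX:74270806-74270835 (*Rpl10*, plus) and chr9:64173377-64173406 (*Rpl4*, plus). *Rps6*, *Rps27*, *Rpl15* and *Rpl27a* had a tract of 10, 9, 17 and 20 bases, whereas *Rpl10* and *Rpl4* had none next to the annotated start.

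Start-site windows were found for 55 of the 75 members, and the other 20 include *Rplp1*, *Rpl21*, *Rpl32*, *Rpl36* and *Rps29*. A C followed by at least 4 pyrimidines began exactly at the annotated start in 13 of the 55 (23.6%), against 3.02% of the 11670 tested genes with a window. Within 5 bases of the start it was present in 27 of the 55 (49.1%), against 23.8%. The sequence CCGGAAG, the core bound by the ETS family to which ERG belongs, occurred on either strand of the window from 250 bases before to 50 bases after the start in 22 of the 55 (40%), against 17.4% of tested genes. The GC box GGGCGG was in 60% of members and 64.5% of tested genes, the E-box CACGTG in 10.9% and 11.0%, TATAAA in 10.9% and 9.59%, and the YY1 core AAGATGGCG in 5.45% and 3.01%. A match is a run of letters and not a bound site.

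FPKM, fragments scaled to exon length and library total and thus a level per length, were deposited for each library. Each value came back as a whole number of fragments, so depth is known. Totals ranged from 19747635 to 32565774 fragments (median 23786832), and the lowest count of any member in any library was 327 fragments, so that counting error is small beside the differences between mice given below. *Erg* was at 8.26 to 27.1 FPKM in the 6 libraries with the transgene and at 0.268 to 0.925 FPKM in the 6 without it. *Trp53* was at 8.87 to 11.3 FPKM in the libraries labelled WT, 13.4 to 22.3 FPKM in those labelled Pb-ERG, 5.32 to 10.6 FPKM in those labelled Trp53pc-/- and 11.2 to 21.5 FPKM in those labelled Pb-ERG;Trp53pc-/-. Its whole-gene level thus did not show the deletion, and in the libraries labelled as double mutants it lay within or above the WT range. *Trp53* status rests on the labels, and every direction below is between libraries as labelled. Genes that each took over 1% of a library, 18 in all and none of them a ribosomal protein gene, together took 4.23% to 36.4% of a library. Double mutant replicate 3 stood apart, with 53.3 FPKM of the luminal gene *Pbsn* (5505 to 20035 FPKM in the other 11 libraries) and 27.7 FPKM of the smooth muscle gene *Acta2* (209 to 868 FPKM). In whole tissue, fewer cells of a type and less RNA per cell cannot be told apart.

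Ribosomal protein genes took 1.79% to 4.13% of the fragments on listed genes, and the 4 genotypes overlapped. The share was 2.09%, 3.44% and 1.85% in WT and 1.79%, 2.43% and 2.95% in Pb-ERG. It was 3.07%, 4.13% and 2.08% in Trp53pc-/- and 2.55%, 3.06% and 4.08% in the double mutants. The group means were 2.46% ± 0.857, 2.39% ± 0.585, 3.09% ± 1.03 and 3.23% ± 0.782 (SD, n = 3 each). Each group held at least 1 library within the range of every other group.

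The genes above 1% of a library changed this picture because they were unevenly spread. They took 28.6% to 31.1% of the fragments in WT and 25.6% to 36.4% in Trp53pc-/-, but 8.21% to 25.8% in Pb-ERG and 4.23% to 14.6% in the double mutants. Among the remaining fragments, the share of ribosomal protein genes was 2.93%, 4.93% and 2.68% in WT, 2.41%, 2.69% and 3.22% in Pb-ERG, 4.13%, 5.61% and 3.26% in Trp53pc-/- and 2.90%, 3.58% and 4.26% in the double mutants. The double mutant mean (3.58% ± 0.684) was then next to that of WT (3.51% ± 1.23), the Pb-ERG mean was the lowest (2.77% ± 0.411) and the Trp53pc-/- mean the highest (4.34% ± 1.19; SD, n = 3 each). WT replicate 2 and Trp53pc-/- replicate 2 were the highest libraries of their groups by either denominator.

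**Figure D1:**
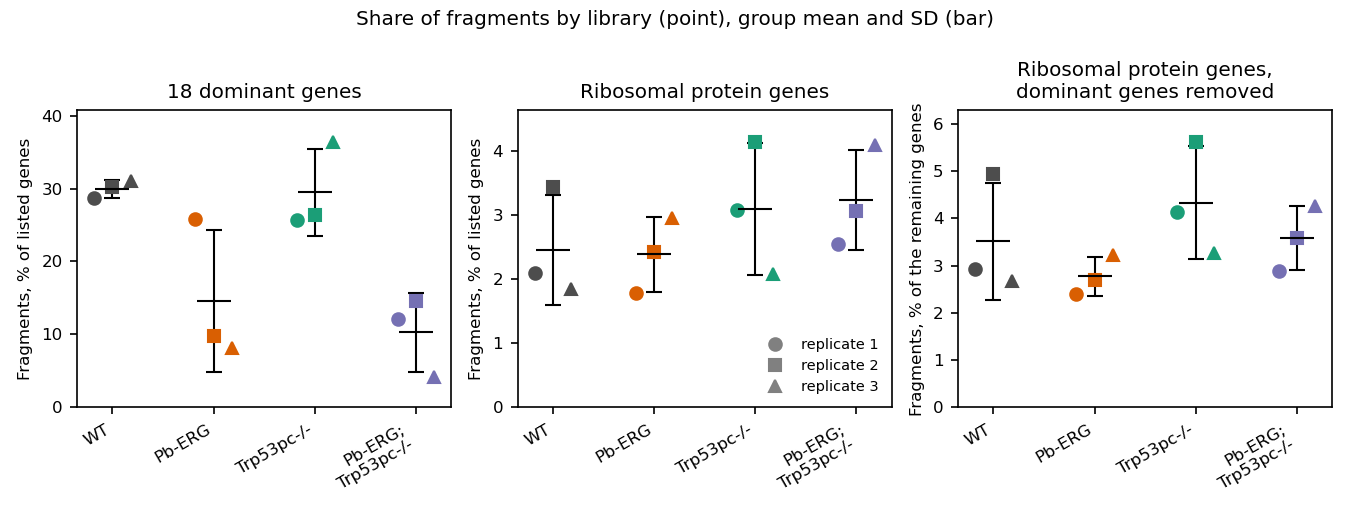
Share of fragments in each library (points, replicates 1 to 3) with the group mean and SD (bars), for the 18 genes above 1% of a library, for the 75 ribosomal protein genes as a percent of all listed genes, and for the same genes as a percent of what remains without the 18. The ribosomal protein share of the double mutant mice, 2.55% to 4.08% of all listed genes, became 2.90% to 4.26% of the remainder, where it overlapped that of the WT mice, 2.68% to 4.93%.

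The small subunit members held 40.1% to 45.8% of the ribosomal protein fragments in the 12 libraries. The highest value was in WT replicate 2 and the lowest in Pb-ERG replicate 2, and the other 10 libraries lay between 41.1% and 43.2%. Rows named as ribosomal protein pseudogenes, which can draw reads from their parents, held another 0.133% to 0.291% of listed fragments. Their fragments amounted to a median of 0.608% of the parent's, but to 135% for *Rpl38*, 82.1% for *Rpl14*, 81.0% for *Rpl10a* and 80.0% for *Rps13*, whose levels are therefore uncertain.

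Levels of single members spanned 79.6 times, from a mean of 29.1 FPKM for *Rpl29* to 2313 FPKM for *Rps27* over the 12 libraries. The highest were *Rps27* and *Rpl32* (1728 FPKM), and the 3 lowest were *Rpl18* (60.0 FPKM), *Rps15a* (52.7 FPKM) and *Rpl29*. The length that the file gives enters each of these values. It is 255 bases for *Rps27*, the shortest of the members, and 5387 bases for *Rps15a*, the longest, so the order of levels is an order per listed length. The neighbors *Rps27* and *Rpl32* differed by less than the SD of *Rps27* over the libraries (674 FPKM).

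To take the dominant genes out of the scaling, each library was divided by a size factor, the median of its ratios to the mean library over genes with at least 10 fragments throughout. On this scale the members moved together from mouse to mouse. The median member, relative to its own mean over 12 libraries on the log2 scale, stood at −0.21, 0.58 and −0.34 in WT and −0.40, −0.34 and −0.09 in Pb-ERG. It stood at 0.27, 0.68 and −0.07 in Trp53pc-/- and −0.29, 0.06 and 0.27 in the double mutants. The gap between WT replicates 2 and 3 was thus larger than any difference between group means. The median SD within groups was 0.38 for the members, against 0.25 for all tested genes. It was 0.22 for the 77 mitochondrial ribosomal protein genes and 0.20 for 30 translation factors and related genes. Sets more like the members came closer to them. The SD was 0.35 for 279 other genes of up to 1000 bases with a mean over 50 FPKM. It was 0.36 for 78 ribosomal protein pseudogene rows and 0.32 for 10 ribosomal protein rows outside the symbol rule. Some other rows also differed between these libraries. The mitochondrial ribosomal RNA *mt-Rnr1* had 77.1, 153 and 81.9 FPKM in WT, 107, 194 and 141 FPKM in Pb-ERG, 100.9, 241 and 112 FPKM in Trp53pc-/- and 154, 127 and 267 FPKM in the double mutants, and *mt-Rnr2* was likewise highest in replicate 2 of the first 3 groups and in replicate 3 of the double mutants. In WT and Trp53pc-/- these were the libraries with the highest median member, and so was double mutant replicate 3, but Pb-ERG replicate 2 was not. Trp53pc-/- replicate 2, with the highest median member of all, also had 5851 FPKM of *Lars2* and 12172 FPKM of *YAM1*, against 665 to 1560 and 561 to 2506 FPKM in the other 11 libraries. The part of these rows in the level of ribosomal protein genes was not tested. The small and large subunits followed the same course, with medians in WT replicate 2 of 0.64 and 0.51 and in Trp53pc-/- replicate 2 of 0.68 and 0.67.

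**Figure D2:**
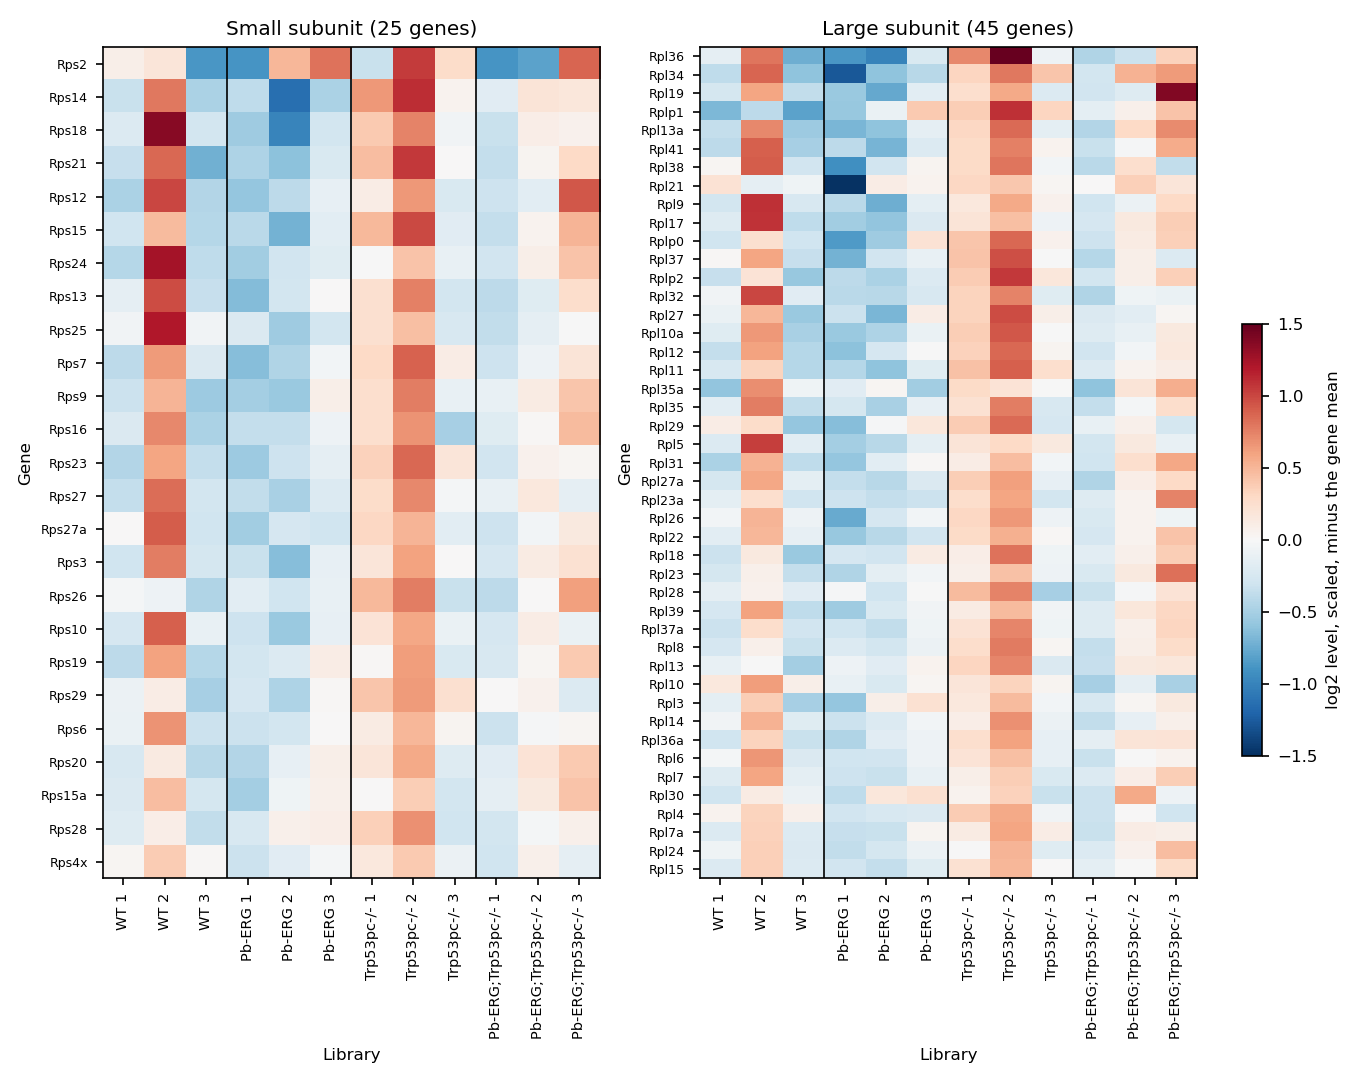
Log2 level of 70 of the 75 members after median-of-ratios scaling, minus the gene's mean over the 12 libraries (color, from −1.5 to 1.5), with libraries in columns and the genes of each subunit ordered from the most to the least variable. The columns of WT replicate 2 and Trp53pc-/- replicate 2 (medians 0.58 and 0.68) are red for most genes, and rows such as *Rps2*, *Rplp1* and *Rpl10* depart from the common course.

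Other genes moved with the members in these libraries. The 279 other genes of up to 1000 bases with a mean over 50 FPKM had a median of 0.32 in WT replicate 2 and 0.44 in Trp53pc-/- replicate 2, and −0.32 in Pb-ERG replicate 2. The 481 other genes over 2000 bases at the same level had 0.11, −0.04 and −0.10 in those libraries and −0.46 in double mutant replicate 3. Members over 1000 bases did as the shorter members did (0.48 and 0.61 in WT replicate 2). The methods of the study state that total RNA of high quality, by its integrity number, was used for the libraries. The part of transcript length and of RNA quality in the differences between mice was not tested.

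**Figure D3:**
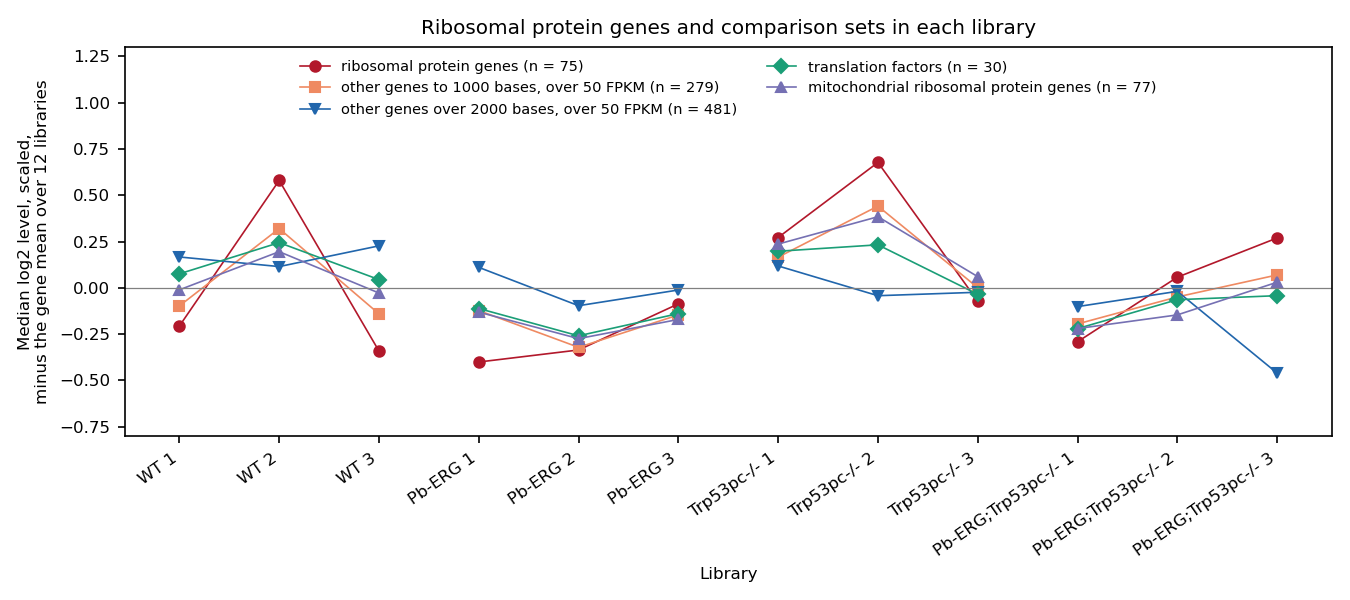
Median log2 level per library after scaling, minus each gene's mean over 12 libraries, for the ribosomal protein genes and 4 comparison sets. The ribosomal protein genes have the widest range (−0.40 to 0.68), and the other short genes (−0.32 to 0.44) share their high points in WT replicate 2 and Trp53pc-/- replicate 2.

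Genotypes were then compared gene by gene with limma on log2(FPKM + 1), fitted to all 12 libraries over the 17623 tested genes, which include all 75 members. At an adjusted p under 0.001, limma called 0 members in any of the 6 contrasts, with FPKM as deposited or after median-of-ratios scaling. The study used this threshold with DESeq2, a different test, so the counts here are not comparable with those of the study. In the double mutant mice compared with WT, 0.204% of all tested genes were called higher at that threshold (0.108% after scaling) and 0% lower. At an adjusted p under 0.05, 1 member was higher with FPKM as deposited, against 22.0% of all tested genes, and 0 were lower, against 1.40%. After median-of-ratios scaling 0 members were called, against 8.52% of all genes higher and 5.51% lower. At an unadjusted p under 0.05, 7 members were higher as deposited, against 37.0% of all tested genes, and after scaling 1 was higher and 1 lower, against 18.3% and 14.3%. limma voom on the recovered fragments with the same scaling called 1 member, *Rpl10*, lower, against 4.76% of all genes, and had 1 higher and 1 lower at an unadjusted p under 0.05, against 17.5% and 14.4%.

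With FPKM as deposited, 73 of the 75 members had a positive log2 fold change in the double mutants compared with WT, with a median of 0.49, but the median of all tested genes was 0.35. After median-of-ratios scaling the median of the members was 0.03, that of all genes 0.04, and 42 of 75 were positive. The deposited median was 0.74 without WT replicate 2, 0.31 without WT replicate 3 and 0.31 without double mutant replicate 3. The scaled median ranged from −0.14 without WT replicate 3 to 0.28 without WT replicate 2. The sign of the scaled median thus depended on 1 mouse.

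Pb-ERG alone compared with WT gave a median of −0.01 with 37 of 75 positive as deposited, where the median of all genes was 0.22. After scaling it was −0.31 with 66 of 75 members negative, against 0.02 for all genes. This scaled median was −0.04 when WT replicate 2 was left out. At 0.001 0.0113% of all tested genes were higher on either scale. 0 members were called by limma at 0.05 on either scale, against 2% of all tested genes higher and 0.176% lower as deposited and 1.17% and 0.431% after scaling. 0 passed an unadjusted p under 0.05, against 21.1% of all tested genes higher and 2.27% lower as deposited and 11.8% and 7.77% after scaling. limma voom called 0 at an adjusted p under 0.05 and had 2 members lower at an unadjusted p under 0.05, against 7.29% of all genes.

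Trp53pc-/- compared with WT gave a median of 0.32 as deposited (72 of 75 positive, all genes 0.03) and 0.26 after scaling (69 of 75 positive, all genes −0.00051). The scaled median was 0.52 without WT replicate 2, 0.13 without WT replicate 3 and 0.12 without Trp53pc-/- replicate 2. 0 members were called by limma or voom at 0.05, against 0% of all tested genes in either direction, and 4 members were higher at an unadjusted p under 0.05 on either scale (6 by voom), against 3.29% of all genes as deposited, 4.26% after scaling and 3.15% by voom. Libraries of these groups with the same replicate number deviated together, so they were also compared as pairs. The share of ribosomal protein genes was 2.09% in WT and 3.07% in Trp53pc-/- for replicate 1, 3.44% and 4.13% for replicate 2, and 1.85% and 2.08% for replicate 3. The scaled median of the members was −0.21 and 0.27, 0.58 and 0.68, and −0.34 and −0.07 in the same order. Both measures were thus higher in Trp53pc-/- in 3 of 3 pairs, where an exact two-sided permutation test within pairs cannot give a p below 0.25. With the number as a block over these 6 libraries, limma called 0 members at 0.05 on either scale (lowest adjusted p 0.43 as deposited and 0.40 after scaling), against 0% of all genes. At an unadjusted p under 0.05, 16 of the 75 members were higher and 0 lower on either scale in that limma fit. Of all genes 7% were higher as deposited and 5.77% after scaling. The pairs were chosen after seeing the data and no label gives them. The members also moved together from mouse to mouse, so these 16 are not independent of each other, and no conclusion is drawn from their number.

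The double mutant mice compared with Pb-ERG had a median of 0.45 as deposited (73 of 75 positive, all genes 0.12) and 0.29 after scaling (72 of 75, all genes 0.01). Compared with Trp53pc-/-, the median was 0.11 as deposited (54 of 75 positive, all genes 0.30) and −0.29 after scaling (68 of 75 negative, all genes 0.03). As deposited, this last median was −0.05 without double mutant replicate 3 and −0.14 without Trp53pc-/- replicate 3. limma called 0 members at 0.05 in both contrasts and on both scales. For the contrast with Pb-ERG 0.0170% of all tested genes were called higher and 0% lower as deposited and 0.0170% and 0.0113% after scaling. For the contrast with Trp53pc-/- 18.7% were called higher and 1.03% lower as deposited, and 8.60% and 5.19% after scaling. At 0.001, 0.227% (0.159% after scaling) were higher in this last contrast. At an unadjusted p under 0.05, 2 members were higher than in Pb-ERG as deposited, against 10.5% of all genes, and 1 was higher after scaling (6.96%) and by voom (7.42%). After scaling 2 members (5 by voom) were lower than in Trp53pc-/- at that p, against 13.7% of all genes (13.5% by voom). The non-additive effect, how far the double mutant departs from both single changes added together, had a median of 0.14 as deposited and 0.04 after scaling, with 48 and 38 of 75 positive and 0 members called (0% of all tested genes in either direction). At an unadjusted p under 0.05, 0 members passed as deposited, against 4.85% of all genes higher and 1.58% lower, and 1 was lower after scaling (3.86% of all genes) and by voom (3.39%). These contrasts share their WT or double mutant libraries and are not independent of each other.

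**Figure D4:**
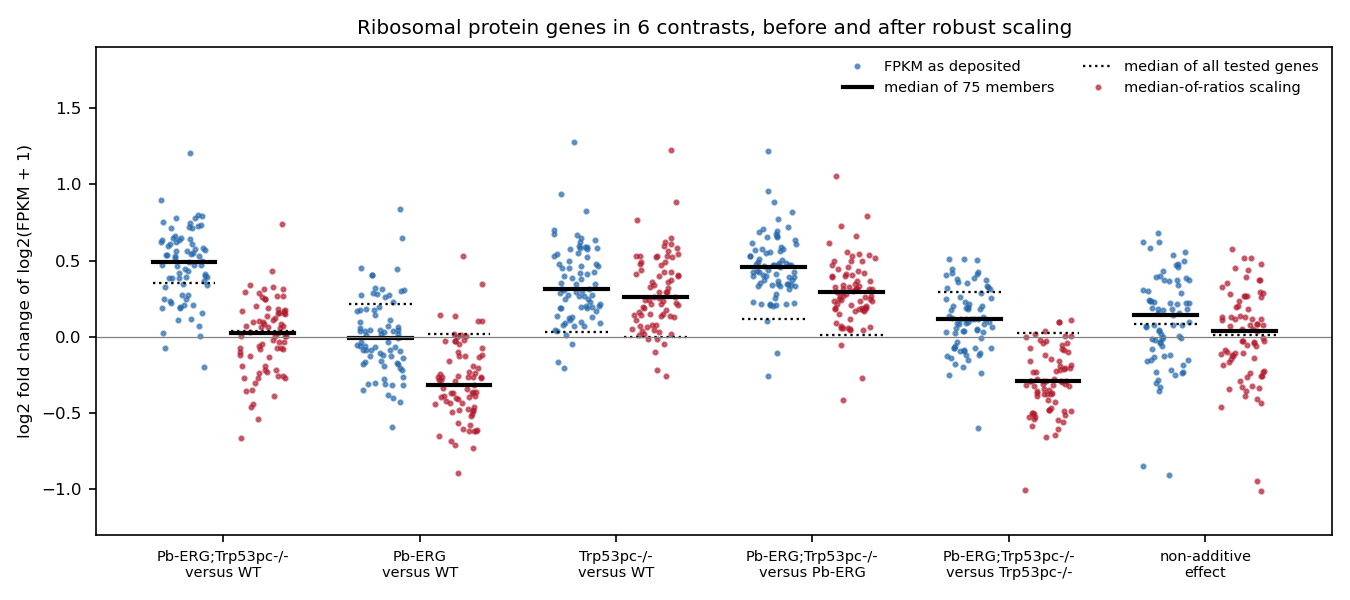
Log2 fold change of each of the 75 members (points) in 6 contrasts, with FPKM as deposited (blue) and after median-of-ratios scaling (red), the median of the members (solid line) and of all tested genes (dotted line). In the double mutant mice compared with WT the median of the members moves from 0.49 to 0.03 with the scaling, and in Pb-ERG compared with WT from −0.01 to −0.31.

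*Rplp1*, a protein of the acidic stalk of the large subunit that binds translation factors (chromosome 9, 61913284 to 61914538, minus strand, GRCm38), was the member called. It had 289, 333 and 246 FPKM in WT, 312, 549 and 790 FPKM in Pb-ERG, 632, 1023 and 526 FPKM in Trp53pc-/- and 544, 602 and 890 FPKM in the double mutants. Every Trp53pc-/- and double mutant library lay above every WT library, before and after scaling, and the Pb-ERG group overlapped WT as deposited. Its log2 fold change in the double mutants compared with WT was 1.20 (SE 0.39, adjusted p = 0.047, limma with Benjamini-Hochberg adjustment) as deposited and 0.74 (SE 0.32, adjusted p = 0.14 in limma) after scaling. The call at 0.05 ended when any 1 of the WT or double mutant mice, Pb-ERG replicate 2 or Trp53pc-/- replicate 1 was left out (adjusted p of 0.062 to 0.14 in limma). In the Trp53pc-/- mice the fold change was 1.28 (SE 0.39, adjusted p = 0.94 in limma), and the non-additive effect was −0.91 (SE 0.55), the smallest p of the members for that term, with an adjusted p of 0.77 in limma. Relative to the median member, *Rplp1* was at −0.46, −0.97 and −0.47 on the log2 scale in WT and between −0.17 and 0.48 in the other 9 libraries. Its stalk partners did not separate the double mutants from WT in this way. In Trp53pc-/- compared with WT, *Rplp2* was among the largest changes of the members, as given below, but its groups overlapped there too. *Rplp2* had 77.4, 109 and 62.2 FPKM in WT and 107, 131 and 182 FPKM in the double mutants, and *Rplp0* had 521, 722 and 492 FPKM and 682, 870 and 1191 FPKM, both overlapping.

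*Rpl23*, a large subunit protein that also binds MDM2, lies on the minus strand of chromosome 11 (97777527 to 97782437). It had 377, 453 and 330 FPKM in WT and 504, 621 and 1159 FPKM in the double mutants. The groups did not overlap and the highest value was that of double mutant replicate 3. Its log2 fold change was 0.89 (SE 0.36, adjusted p = 0.094 in limma) as deposited and 0.43 (SE 0.30) after scaling. The other large changes as deposited were 0.80 for *Rpl18*, 0.79 for *Rpl34* and 0.78 for *Rpl19*, each large subunit proteins, with adjusted p values of 0.079, 0.20 and 0.26 in limma. *Rpl19* had 300, 302 and 1056 FPKM in the double mutants, and its log2 fold change without replicate 3 was 0.18.

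At the other end, *Rpl10* (chromosome X, 74270812 to 74273135, plus strand), which completes the large subunit late in its assembly, had 785, 1030 and 702 FPKM in WT, 656, 768 and 935 FPKM in Pb-ERG, 851, 920 and 661 FPKM in Trp53pc-/- and 654, 799 and 721 FPKM in the double mutants. All groups overlapped as deposited (log2 fold change −0.20, SE 0.30, adjusted p = 0.64 in limma). After scaling it had 873, 1204 and 831 FPKM in WT and 554, 714 and 556 FPKM in the double mutants, which did not overlap (log2 fold change −0.66, SE 0.27, adjusted p = 0.12 in limma and 0.047 in limma voom). Relative to the median member it stood at 0.36, 0.04 and 0.43 in WT and −0.21, −0.19 and −0.76 in the double mutants. Other small changes in the double mutants were −0.07 for *Rps25*, 0.00 for *Rpl32* and 0.07 for *Rpl38* as deposited, and −0.54, −0.46 and −0.39 after scaling (SE 0.35 to 0.46).

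**Figure D5:**
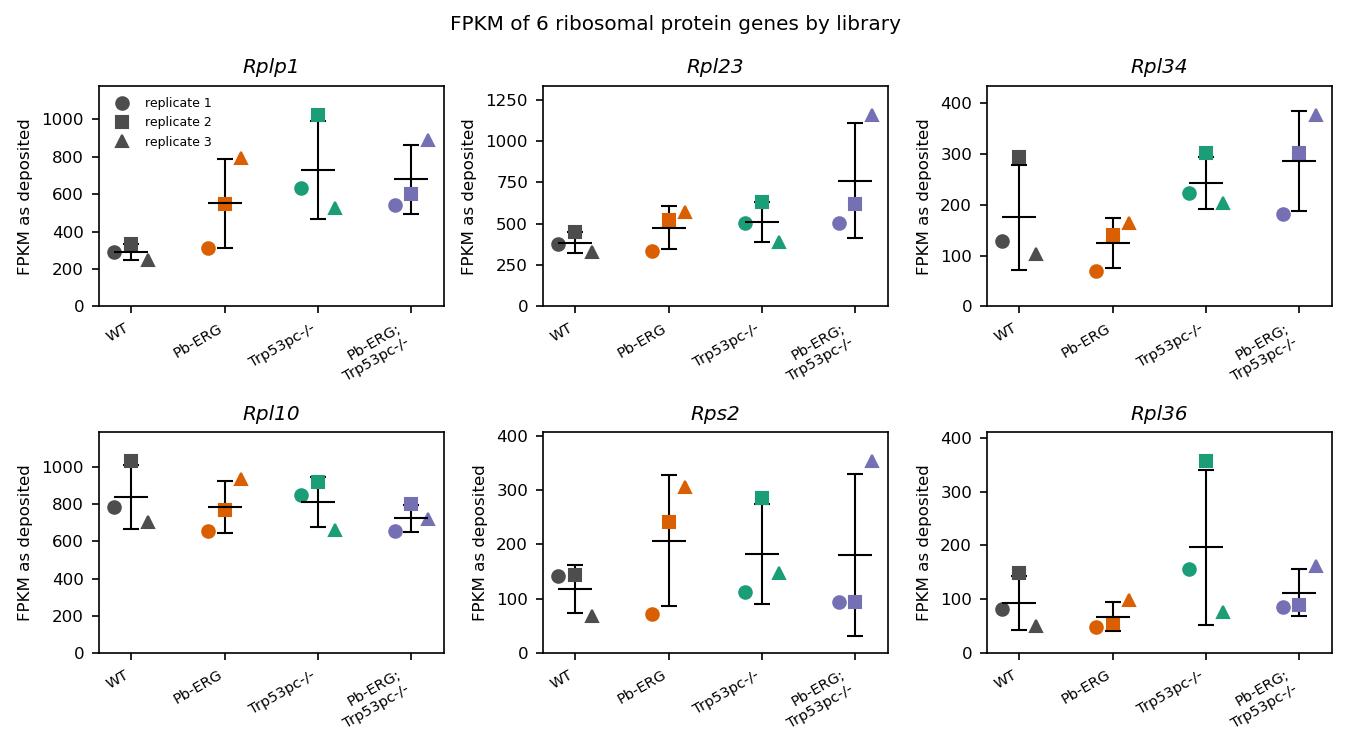
FPKM as deposited of 6 ribosomal protein genes in each library (points, replicates 1 to 3) with the group mean and SD (bars). *Rplp1* lies at 246 to 333 FPKM in WT and at 544 to 890 FPKM in the double mutants, *Rpl10* overlaps in all groups, and *Rps2* and *Rpl36* spread widely within groups.

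Members whose groups do not overlap were then counted. In the double mutant mice compared with WT, 16 of 75 members lay higher in every mouse as deposited (21.3%), against 44.7% of all tested genes, and 0 lay lower, against 5.29%. After scaling *Rplp1* lay higher and *Rpl10* and *Rpl4* lower, against 22.1% and 18.6% of all genes. In the Trp53pc-/- mice compared with WT, *Rplp1* and *Rps29* lay higher on both scales, against 8.53% as deposited and 8.35% after scaling. *Rps29*, a small subunit protein, had 153, 168 and 108 FPKM in WT and 232, 265 and 176 FPKM in Trp53pc-/-. In the Pb-ERG mice compared with WT, *Rpl13* lay higher as deposited (27.6% of all genes), and 8 members lay lower after scaling (13.6% of all genes), among them *Rpl4*, *Rpl10*, *Rpl32* and *Rps25*. *Rpl4* had 1293, 1574 and 1321 scaled FPKM in WT and 1023, 1058 and 1078 in Pb-ERG. With 3 mice against 3 the exact permutation test of a single gene cannot go below p = 0.1.

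In the double mutant mice compared with Pb-ERG, *Rpl15*, *Rpl22*, *Rpl23a*, *Rpl34*, *Rps14* and *Rps27* lay higher on both scales, against 12% of all genes as deposited and 8.29% after scaling. *Rpl34* (on the minus strand of chromosome 3, 130726831 to 130730398) had 70.0, 141 and 164 FPKM in Pb-ERG and 182, 302 and 378 FPKM in the double mutants. Its log2 fold change of 1.22 (SE 0.44, adjusted p = 0.32 in limma) was the largest of this contrast. In the double mutant mice compared with Trp53pc-/-, *Rpl10*, *Rpl11*, *Rpl27*, *Rps6*, *Rps23* and *Rps29* lay lower after scaling, against 15.3% of all genes.

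Against the single mutants, the largest changes of Pb-ERG from WT as deposited were *Rplp1* (0.83), *Rps2* (0.65) and *Rpl13* (0.45), and the smallest were *Rps18* (−0.59), *Rpl34* (−0.42) and *Rps25* (−0.40), with adjusted p values of 0.23 to 0.59 in limma. In the Trp53pc-/- mice *Rplp1* was followed by *Rpl36* (0.94, SE 0.56) and *Rplp2* (0.82, SE 0.31), and *Rps25* (−0.16) and *Rpl10* (−0.04) were among the smallest.

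A few members did not follow the common course. *Rps2*, at the mRNA entry side of the small subunit (on the plus strand of chromosome 17, 24720063 to 24721929), had 142, 144 and 67.7 FPKM in WT, 72.7, 242 and 306 FPKM in Pb-ERG, 113, 286 and 147 FPKM in Trp53pc-/- and 93.9, 94.6 and 353 FPKM in the double mutants. It was high in 4 libraries of 3 groups, and its level relative to the median member had an SD of 0.63, the largest of the 75. *Rpl36* (SD 0.51) had 155, 356 and 76.8 FPKM in Trp53pc-/-, and *Rpl21* (SD 0.47) had 37.7, 147 and 143 FPKM in Pb-ERG. *Rps2* and *Rpl36* overlapped between all groups, whereas *Rpl21* was lower in every WT mouse (123, 91.3 and 94.7 FPKM) than in every double mutant mouse (139, 168 and 173 FPKM). *Rpl36* and *Rpl21* have 7 and 13 pseudogene rows, and *Rps2* has 6. *Rpl27a* and *Rpl39* were among the members that kept most closely to the median (SD 0.10 each). *Rpl27a* had 53.9, 92.6 and 55.0 FPKM in WT and 61.8, 86.4 and 115 FPKM in the double mutants, which overlapped.

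The 8 members known to bind MDM2 or p53 (*Rpl5*, *Rpl11*, *Rpl23*, *Rpl26*, *Rps3*, *Rps7*, *Rps14* and *Rps27a*) had a median log2 fold change of 0.41 in the double mutants compared with WT as deposited and −0.06 after scaling, against 0.49 and 0.03 for all 75, and 0 of the 8 were called by limma at 0.05. *Rpl5*, which with *Rpl11* forms the particle that holds MDM2, had 93.0, 210 and 89.7 FPKM in WT, 130, 136 and 108 FPKM in Trp53pc-/- and 116, 147 and 143 FPKM in the double mutants. *Rpl11* had 147, 208 and 120 FPKM, 251, 335 and 189 FPKM, and 197, 225 and 270 FPKM in the same groups. *Rpl5* was highest in WT replicate 2, and as deposited both genes overlapped between groups. In Trp53pc-/- compared with WT the log2 fold change was 0.04 (SE 0.31) for *Rpl5* and 0.70 (SE 0.28, adjusted p = 0.94 in limma) for *Rpl11*. The double mutant compared with WT gave 0.16 for *Rpl5*, 0.56 for *Rpl11*, 0.25 for *Rpl26*, 0.43 for *Rps3*, 0.39 for *Rps7*, 0.54 for *Rps14* and 0.19 for *Rps27a* as deposited.

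The 10 members mutated in Diamond-Blackfan anemia, an inherited failure of red cell production (among them *Rps19*, *Rps26*, *Rpl5*, *Rpl11* and *Rpl35a*), had a median of 0.39 as deposited and −0.08 after scaling in the same comparison, with 10 and 4 positive and 0 called. *Rps19*, the first of them to be linked to the disease, had 120, 227 and 109 FPKM in WT and 174, 200 and 298 FPKM in the double mutants (log2 fold change 0.60, SE 0.36). *Rps26* (0.72), *Rpl35a* (0.49), *Rps24* (0.39) and *Rps10* (0.21) had adjusted p values of 0.18 to 0.66 in limma. *Rps6*, whose phosphorylation by S6 kinase is the usual readout of mTOR signaling and whose TOP tract is printed above, had 223, 362 and 179 FPKM in WT, 191, 252 and 311 FPKM in Pb-ERG, 275, 348 and 223 FPKM in Trp53pc-/- and 249, 293 and 349 FPKM in the double mutants. As deposited all 4 groups of *Rps6* overlapped (log2 fold change of the double mutant 0.27, SE 0.30, as deposited, and −0.19, SE 0.26, after scaling).

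Members with and without a pyrimidine tract near the annotated start, or the ETS core, had like medians. These medians are given as a description. A tract within 5 bases was also present in 23.8% of tested genes with a window. Only 13 of the 55 members had one exactly at the annotated start. A split by this tract therefore cannot tell members with a TOP tract from members that lack it, and no conclusion is drawn from that split. Between the double mutant and WT the 27 members with a tract within 5 bases of the start had a median log2 fold change of 0.49 (0.07 to 0.80) and the 28 without one 0.45 (−0.20 to 0.89). In the Pb-ERG mice after scaling the 22 members with CCGGAAG had a median of −0.38 and the 33 without it −0.27, and as deposited −0.08 and 0.04.

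Some ribosomal proteins are left out by the symbol rule. Of 10 tested rows (among them *Rpsa*, *Fau*, *Gnb2l1*, now called *Rack1*, and the paralogs *Rpl22l1* and *Rps27l*), 0 were called in the double mutants compared with WT on either scale, with a median of 0.40 as deposited and −0.04 after scaling. *Fau*, which encodes a fusion of ubiquitin-like FUBI and RPS30, had 153, 256 and 103 FPKM in WT and 195, 219 and 272 FPKM in the double mutants. The mitochondrial ribosome, a separate machine encoded by 77 tested nuclear genes, had 4 genes higher and 1 lower at an adjusted p under 0.05 as deposited and 0 higher and 6 lower after scaling (limma), with medians of 0.29 and −0.13. In that comparison 22.0% of all tested genes were higher and 1.40% lower as deposited, and 8.52% and 5.51% after scaling.

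Other parts of the translation machinery were compared in the same way, in the double mutants against WT at an adjusted p under 0.05 in limma. At that threshold 22.0% of all tested genes were higher and 1.40% lower as deposited, and 8.52% and 5.51% after scaling. The list of 30 translation factors also holds related genes that are not translation factors, such as *Naca*, *Btf3*, *Nap1l1* and *Tpt1*. Of these 30 genes, 2 were higher and 0 lower as deposited (median 0.20), and 0 were higher and 3 lower after scaling (median −0.24). *Eif6*, which keeps the subunits apart, was higher as deposited (log2 fold change 0.84, SE 0.23, adjusted p = 0.027), and the helicase *Eif4a2* was lower after scaling (−1.10, SE 0.20, adjusted p = 0.010). *Eif4a2* had 134, 224 and 130 FPKM in WT and 99.8, 102 and 99.7 FPKM in the double mutants. The initiation factor subunit *Eif2s2* was lower after scaling in the double mutant (−0.67, adjusted p = 0.018) and in Pb-ERG compared with WT (−0.71, adjusted p = 0.040, limma).

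Of 40 ribosome biogenesis genes, which make and process ribosomal RNA, 6 were higher and 0 lower as deposited (median 0.48) and 0 were higher and 1, *Tsr1*, lower after scaling (median 0.09). The shares of all tested genes, for this list and those below, were 22.0% higher and 1.40% lower as deposited, and 8.52% and 5.51% after scaling. *Fbl*, the rRNA methyltransferase fibrillarin, had 7.73, 5.49 and 4.92 FPKM in WT and 13.2, 9.40 and 24.2 FPKM in the double mutants, and was higher by 1.16 on the log2 scale as deposited (SE 0.34, adjusted p = 0.035 in limma). Of 20 genes listed under mTOR signaling, 2 were higher and 1 lower as deposited and 0 higher and 2 lower after scaling. That list includes *Pdk1*, which in mouse is the symbol of a pyruvate dehydrogenase kinase and not of an mTOR pathway gene. *Deptor*, an inhibitor of mTOR, was lower on both scales (−1.43 and −1.83, adjusted p = 0.0092 and 0.0081 in limma), with 13.5, 13.4 and 15.7 FPKM in WT and 5.62, 7.02 and 2.33 FPKM in the double mutants. Of 9 MYC network genes, 3 were higher as deposited and 0 after scaling. *Myc*, which drives ribosome production, had 8.98, 7.74 and 9.09 FPKM in WT and 13.7, 14.1 and 41.4 FPKM in the double mutants (1.14, adjusted p = 0.048 as deposited, 0.71 and 0.15 after scaling, limma). Of 16 genes listed as p53 targets, a list that includes *Trp53* itself, 3 were higher and 0 lower as deposited. After scaling 1 was higher and 2 lower. *Plk2* was higher on both scales and *Ccng1* lower after scaling (2.26, 1.85 and −0.79, adjusted p = 0.0038, 0.0091 and 0.019 in limma).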

How the data were processed

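RNA was measured in prostate tissue of 12 mice, and each library is 1 mouse. By the methods of the study, total RNA went into TruSeq libraries, which were sequenced on an Illumina HiSeq. Reads were aligned with STAR to GRCm38/mm10 and counted with RSeQC. The STAR version is 2.5.2b in the submitters' processing notes but a different one in those methods. Which of them made the deposited FPKM is not settled. The FPKM values deposited by the authors scale fragments to exon length and to each library total. A total dominated by a few genes lowers every other FPKM. Multiplied by exon length and total, all values were whole fragments (tolerance 0.01).

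FPKM were tested with limma 3.58.1 in R 4.3.3 (trended prior variance) on log2(FPKM + 1), a scale that understates changes of low genes, with group means of all 12 libraries (8 residual degrees of freedom) and Benjamini-Hochberg adjustment over 17623 genes. Tested genes reached 0.420 CPM in 3 or more libraries and 15 fragments in total. The thresholds were 0.001 and 0.05. Fold changes were recomputed after dividing by median-of-ratios size factors over 14081 genes with at least 10 fragments in every library. Exact permutation tests of single members were two-sided. Alternatives were scaling without the 18 genes above 1%, trimmed mean of M-values, limma voom on recovered fragments, other filters, a pseudocount of 0.1, only the groups compared, a replicate block and each mouse left out. Deviations from group means of WT and Trp53pc-/- libraries with the same replicate number correlated at 0.179 to 0.240 over genes. Those 3 pairs were therefore treated as paired. Correlations for other numbers were −0.206 to −0.0481. Deviations from a group mean cancel within the group, so positive values for 1 matching push the others below 0. The negative values are thus not separate evidence of pairing. No other pair of groups had 3 of 3 correlations above 0.1. The pairing is read from the data, and a shared litter, batch or day is not given in the sources used here. The fit was tested on simulated data. Tables were handled in Python 3.11.15 with SciPy 1.17.1, numpy 2.4.6 and pandas 2.3.3, and plots drawn with matplotlib 3.10.9.

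The members and lists were chosen with earlier results of these data known. Members were named by rule: the 3 highest and 3 lowest levels, the 5 largest and 5 smallest changes of the double mutant and 3 and 3 of each single mutant from WT, the 3 smallest p values for the non-additive effect (*Rplp1*, *Rpl17*, *Rpl34*), the 3 most and 3 least variable relative levels, the MDM2-binding and Diamond-Blackfan members and *Rps6*. Some members that these rules pick are not reported here. Members whose groups did not overlap, *Rplp0* and the comparison sets by length were added after their values were seen.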

Additional observations from a re-analysis of the deposited data

How the results depend on the processing

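At an adjusted p under 0.001 the count of members called stayed at 0 in all 6 contrasts under the scalings, filters, pseudocount, sample choices and omissions tried, which does not show stability. At 0.05 it was 1 in the double mutant compared with WT. The median log2 fold change of that contrast, 0.49 as deposited, was 0.027 with median-of-ratios scaling, −0.0092 with the trimmed mean of M-values and 0.0065 with limma voom on recovered fragments, and the median of the double mutant compared with Trp53pc-/- was −0.34 with the trimmed mean of M-values. The share of ribosomal protein genes among fragments outside the genes above 1% was 3.51% in WT and 4.34% in Trp53pc-/-. The cause of these shifts beyond the changed divisor was not tested. Only WT and Trp53pc-/- had all 3 same-number correlations above 0.1, and no label says that these mice were matched. Treating those libraries as pairs changed no call at an adjusted p. Over all groups 8 of 18 pairs with the same number correlated over 0.1 (−0.237 to 0.370). With the replicate number as a block over all 12 libraries, the count at 0.001 was 0 and the median 0.49, and the adjusted p of *Rplp1* in limma was 0.058, so that 0 members were called at 0.05. Without a filter on low values that adjusted p was 0.084.

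The log2 fold change of single members in the double mutant compared with WT, none of them called, was positive as deposited for those listed next as turning negative. It turned negative with median-of-ratios scaling for *Rps27* (−0.10), *Rpl32* (−0.46), *Rpl29* (−0.034), *Rpl38* (−0.39), *Rps2* (−0.073), *Rpl36* (−0.12), *Rpl27a* (−0.077), *Rpl5* (−0.30), *Rpl26* (−0.22), *Rps3* (−0.034), *Rps7* (−0.078), *Rps27a* (−0.27), *Rps10* (−0.26), *Rps24* (−0.074), *Rps6* (−0.19). It turned negative with the trimmed mean of M-values for *Rps27* (−0.14), *Rpl32* (−0.50), *Rpl29* (−0.069), *Rpl38* (−0.43), *Rps2* (−0.11), *Rpl36* (−0.16), *Rpl27a* (−0.11), *Rpl5* (−0.34), *Rpl26* (−0.25), *Rps3* (−0.071), *Rps7* (−0.11), *Rps27a* (−0.31), *Rps10* (−0.30), *Rps24* (−0.11), *Rpl35a* (−0.0092), *Rps6* (−0.23). It turned negative with limma voom on recovered fragments for *Rps27* (−0.11), *Rpl32* (−0.48), *Rpl29* (−0.031), *Rpl38* (−0.39), *Rps2* (−0.11), *Rpl36* (−0.098), *Rpl27a* (−0.084), *Rpl5* (−0.32), *Rpl26* (−0.22), *Rps3* (−0.052), *Rps7* (−0.095), *Rps27a* (−0.29), *Rps10* (−0.27), *Rps24* (−0.10), *Rps6* (−0.20). It turned negative with the total without the genes above 1% for *Rpl32* (−0.34), *Rpl38* (−0.27), *Rpl36* (−0.0047), *Rpl5* (−0.19), *Rpl26* (−0.096), *Rps27a* (−0.15), *Rps10* (−0.14), *Rps6* (−0.072). Leaving out 1 mouse at a time turned the sign in the double mutant against WT for *Rpl32* (−0.23 to 0.37), *Rps25* (−0.30 to 0.34), *Rpl38* (−0.20 to 0.41), *Rps2* (−0.24 to 0.71), *Rpl36* (−0.036 to 0.74), *Rpl5* (−0.054 to 0.56), *Rps27a* (−0.078 to 0.53). Leaving out 1 mouse at a time turned the sign in Pb-ERG against WT for *Rpl34* (−0.73 to 0.019), *Rps25* (−0.63 to 0.0037). Leaving out 1 mouse at a time turned the sign in Trp53pc-/- against WT for *Rps25* (−0.39 to 0.24), *Rpl10* (−0.16 to 0.11). Median-of-ratios scaling combined with the block or with omission of a mouse, and the block over WT and Trp53pc-/- alone, were chosen after seeing the data.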

Other observations

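Markers of growth and of other cell types were measured in the same fit, as counts of genes called by limma at an adjusted p under 0.05 in the double mutants compared with WT, as deposited and then after scaling. Of all tested genes, 22.0% were called higher and 1.40% lower as deposited, and 8.52% and 5.51% after scaling. Of 8 cell cycle genes, 8 and 6 were higher, and *Mki67* had 0.429, 0.188 and 0.340 FPKM in WT and 3.61, 3.28 and 10.9 FPKM in the double mutants. Of 6 macrophage genes, 6 and 5 were higher, and *Cd68* had 2.95, 6.37 and 4.59 FPKM and 23.8, 12.9 and 22.3 FPKM. Of 5 fibroblast genes, 3 and 2 were higher. Of 6 T cell and of 5 endothelial genes, 3 and 0 were higher, and of 5 neutrophil genes, 1 and 1 were higher. Of 13 luminal genes, 1 was higher and 2 were lower on both scales, and 0 of 5 basal, 6 smooth muscle, 5 B and plasma cell, 3 neuroendocrine and 8 seminal vesicle genes were called on either scale. The part of these cell types in the level of ribosomal protein genes was not tested.

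Seminal vesicle genes differed most between mice, and not in 1 direction. The mean share of listed fragments of *Svs4* was 0.00897% in WT and 0.936% in the double mutants. That of *Svs2* was 1.40% and 0.0101%, and that of *Svs5* was 0.292% and 0.279%. *Svs4* had 206, 26.8 and 123 FPKM in WT, 11497, 102 and 57.1 FPKM in Pb-ERG, 1256, 5842 and 1076 FPKM in Trp53pc-/- and 2032, 34926 and 1.23 FPKM in the double mutants. The ribosomal protein genes had scaled medians of −0.40, −0.34 and −0.09 in Pb-ERG and −0.29, 0.06 and 0.27 in the double mutants in the same order. The abundant elongation factor *Eef1a1* had 5276, 7057 and 4654 FPKM in WT, 4266, 4824 and 6140 FPKM in Pb-ERG, 6547, 6785 and 4448 FPKM in Trp53pc-/- and 5641, 6508 and 5498 FPKM in the double mutants, with its WT high point in replicate 2.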
